A study of Homo sapiens with 7 samples.

Results

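The genes described here are 35 genes of cholesterol and fatty acid synthesis, taken by name: the mevalonate pathway, the sterol steps after it, the enzymes that make and desaturate fatty acids, the regulators of both routes, and sterol transport. Of these genes, 32 were read by at least 1 named probe that passed the detection limit, through 42 of the 19337 probes tested. No named probe of FDFT1, STARD4 or NPC1L1 was among those tested. Expression was measured in PC3 cells, an established human prostate cancer line that was derived from a metastasis in bone. The cells bear the lentiviral TRIPZ-MITFA cassette, from which doxycycline induces a tagged isoform A of the transcription factor MITF. The comparison is between 4 arrays of doxycycline-treated cells (Dox, replicates 1 to 4) and 3 arrays of untreated cells (No dox, replicates 2 to 4), and all 7 carry the cassette in the same line. Effects of doxycycline itself and of MITFA cannot be told apart, since cells without the cassette were not analysed here. Nothing in the labels ties the arrays to separate cultures. The p-values therefore refer to the spread among these 7 arrays alone, part or all of which may be technical.

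Cells build cholesterol from acetyl-CoA through mevalonate and isoprenoid units to squalene, which is closed to lanosterol and then trimmed, reduced and isomerised to cholesterol. Fatty acids branch off the same acetyl-CoA pool through malonyl-CoA, fatty acid synthase, elongases and desaturases. Both routes are driven by the SREBP transcription factors, which SCAP escorts out of the endoplasmic reticulum when sterols are low and INSIG proteins hold back when sterols are plentiful. Prostate cancer cells are known for high lipid synthesis. MITF, best known from melanocytes, binds E-box motifs in DNA.

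Between 15562 and 16618 of the 47323 probes were detected per array, and 39 of the 42 member probes were detected on all 7 arrays. Array pairs correlated between 0.994 and 0.996 on the log2 scale. The epithelial keratin KRT19 had mean log2 signals of 10.16 in Dox and 10.17 in No dox cells, and EPCAM of 8.36 in Dox and 8.46 in No dox cells. KRT8, another keratin, had 6.59 in Dox and 6.46 in No dox cells. CDH1, a further epithelial gene, was low at 4.91 in Dox and 4.98 in No dox cells. Of the leukocyte, endothelial, fibroblast and hepatocyte markers, only CD14, PECAM1, COL1A1, COL1A2 and ALB had a tested probe, all with mean log2 signals between 4.38 and 5.21. None of these marker genes passed the test. The 1 tested MITF probe differed by −0.06 on the log2 scale (95% CI −0.26 to 0.14, adjusted p = 0.900, limma). No source used here says whether this probe reads the sequence of the cassette. For PC3 TRIPZ-MITFA cells, the paper reports MITF induction by doxycycline in quantitative PCR and western blot. In a bulk sample, fewer cells of a type and less RNA per cell cannot be told apart.

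Among the synthesis genes, TM7SF2, a sterol reductase of the late cholesterol pathway, was the only gene with a probe past the test, and it was higher with doxycycline. Most of the others leaned the same way by small amounts: 25 of the 32 genes had a log2 fold change above 0, with a median of 0.13. SREBF2, which passed the detection limit through the Dox arrays alone, is among the 25, and without it the count was 24 of 31, with the same median. Over all 11389 genes tested, 51.9% were above 0 and the median was 0.01. ACSS2, an enzyme that turns acetate into acetyl-CoA, SCD, which puts the double bond into stearate, MVD of the mevalonate pathway and SC5D, a sterol desaturase, were higher on every Dox array than on every No dox array without passing the adjusted threshold. No member was lower past the test. The members were proposed with results of these data known, so no test of the list as a whole is given.

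In numbers, 1 of the 42 member probes was called at an adjusted p-value under 0.05 (limma, Benjamini-Hochberg over all 19337 probes), against 0.134% of all probes, which is 26 higher and 0 lower. At an unadjusted p-value under 0.05, 6 member probes of 5 genes were higher (14.3% of the 42, against 4.49% of all probes). At the same threshold, 0 member probes and 4% of all probes (774) were lower. All Dox arrays exceeded all No dox arrays at 7 member probes (16.7%, against 5.07% of all probes), and all Dox arrays were below all No dox arrays at 1 (against 4.24%). Some of these probes read the same gene. The authors' processed log2 values gave nearly the same fit as no background correction, with TM7SF2 at 0.303 in both. On the authors' values, 4 member probes were called higher (against 0.393% of all probes, or 76) and 0 lower (against 0.129%, or 25). They were the TM7SF2 probe, both ACSS2 probes and the SCD probe. The median of the member genes was 0.08 on those values, with the same count of 25 of 32 above 0.

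**Figure D1:**
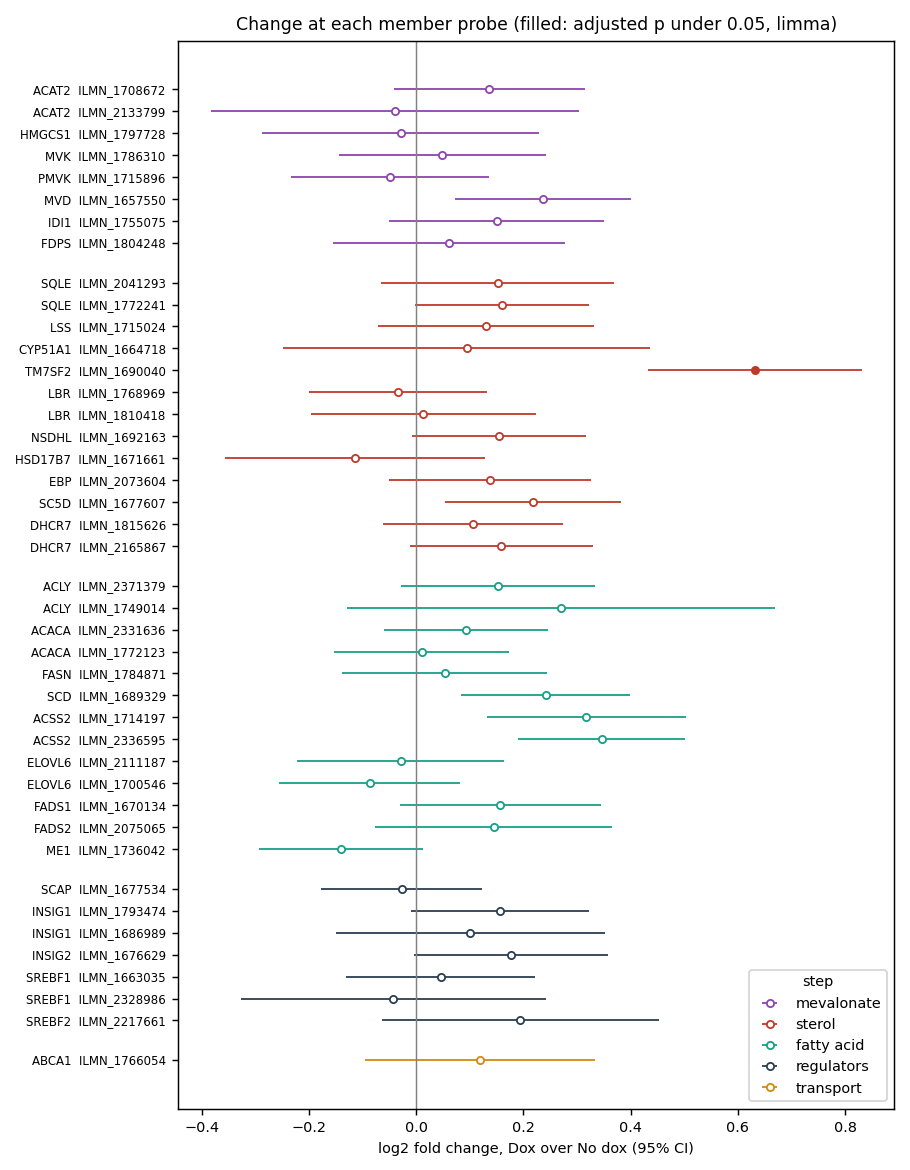
Log2 fold change of Dox over No dox (x axis) with its 95% confidence interval for each of the 42 member probes (rows), coloured by step; the filled point passed an adjusted p-value of 0.05 in limma. Most points lie to the right of 0, and TM7SF2 at 0.63 stands apart here from the rest, which run between −0.14 and 0.35. On the authors' values, not shown, TM7SF2 was at 0.30, level with the ACSS2 probes at 0.32 and 0.30. SREBF2 was detected on Dox arrays only.

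By step, 5 of 7 mevalonate genes were above 0 (median 0.06), as were 8 of 10 sterol genes (median 0.13), 7 of 9 fatty acid genes (median 0.14), 4 of 5 regulators (median 0.16) and the 1 transport gene tested. Without SREBF2, 3 of 4 regulators were above 0 (median 0.10). The intervals describe the normalized signal. At 40 of the 42 probes the 95% confidence interval lay within a 1.5-fold change in either direction, the exceptions being TM7SF2 and 1 of the ACLY probes. The 40 include the 3 probes not detected on every array: SREBF2 and the dimmer probes of ACAT2 and INSIG1. There, signal near background cannot bound a change in the transcript. The fold at a dim probe can also move with the background correction, as given below for TM7SF2. The median half-width of the intervals was 0.19 on the log2 scale, and at 36 probes the interval included 0. For 10 genes, 2 probes were tested, and the pair had the same sign in 7 of them; the probes of ACAT2, LBR and SREBF1 had opposite signs.

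The promoters of the members with the smallest p-values, of which only TM7SF2 was called, are shown next so that their sequence can be read beside their values. Each is the RefSeq window from 250 bases before to 50 after an annotated transcription start (GRCh38.p14), written 5′ to 3′ on the gene's strand. Capitals mark matches, on either strand, to the E-box words CACGTG and CATGTG, to the sterol regulatory word TCACNCCAC and to the CCAAT word, whose reverse reading is ATTGG; none of the marked matches overlap. The windows are TM7SF2 (chr11:65111622-65111921, plus strand), ACSS2 at its annotated starts 1 (chr20:34874739-34875038, plus strand) and 2 (chr20:34876362-34876661, plus strand), SCD (chr10:100346983-100347282, plus strand) and MVD (chr16:88663042-88663341, minus strand).
TM7SF2: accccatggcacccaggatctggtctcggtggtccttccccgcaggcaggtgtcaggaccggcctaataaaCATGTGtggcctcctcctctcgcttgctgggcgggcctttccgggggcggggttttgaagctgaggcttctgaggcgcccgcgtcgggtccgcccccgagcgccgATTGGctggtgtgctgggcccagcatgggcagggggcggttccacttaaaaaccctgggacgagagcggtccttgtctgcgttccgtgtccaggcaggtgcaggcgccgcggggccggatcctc
ACSS2 start 1: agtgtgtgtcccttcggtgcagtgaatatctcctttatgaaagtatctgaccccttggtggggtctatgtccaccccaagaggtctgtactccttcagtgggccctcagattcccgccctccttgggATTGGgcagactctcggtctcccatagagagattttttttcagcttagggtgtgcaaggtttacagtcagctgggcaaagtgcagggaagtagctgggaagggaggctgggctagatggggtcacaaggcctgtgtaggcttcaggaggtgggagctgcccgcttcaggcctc
ACSS2 start 2: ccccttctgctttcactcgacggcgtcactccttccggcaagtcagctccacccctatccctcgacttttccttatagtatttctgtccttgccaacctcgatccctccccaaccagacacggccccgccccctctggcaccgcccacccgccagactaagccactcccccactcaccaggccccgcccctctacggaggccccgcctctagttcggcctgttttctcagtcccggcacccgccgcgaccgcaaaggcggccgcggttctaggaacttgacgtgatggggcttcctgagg
SCD: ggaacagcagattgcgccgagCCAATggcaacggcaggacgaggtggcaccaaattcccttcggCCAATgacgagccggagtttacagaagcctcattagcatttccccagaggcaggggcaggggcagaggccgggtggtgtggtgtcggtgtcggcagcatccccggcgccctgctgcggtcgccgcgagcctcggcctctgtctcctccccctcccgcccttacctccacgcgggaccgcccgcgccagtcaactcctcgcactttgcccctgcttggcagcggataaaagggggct
MVD: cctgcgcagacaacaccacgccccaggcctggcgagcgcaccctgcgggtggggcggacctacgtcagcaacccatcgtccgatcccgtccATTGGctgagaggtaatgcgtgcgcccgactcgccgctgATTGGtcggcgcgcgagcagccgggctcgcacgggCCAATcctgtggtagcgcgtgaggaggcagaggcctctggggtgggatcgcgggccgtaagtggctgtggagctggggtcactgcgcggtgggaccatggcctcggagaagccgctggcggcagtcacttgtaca
In the TM7SF2 window the E-box word CATGTG begins at position −179 from the start and ATTGG at −74. ACSS2 start 1 holds ATTGG at −123, and start 2 holds none of the words. SCD holds CCAAT at −229 and −186. MVD holds ATTGG at −159 and −120 and CCAAT at −85.

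Across the set, 31 of the 35 members have a promoter window in the table used here. The CCAAT word was in the windows of 21 members (67.7%), against 39.7% of the 27305 genes with a window and 43.8% of the 9239 of them that were tested on these arrays. The E-box word CACGTG was in the windows of 5 members, ABCA1, INSIG1, LSS, SC5D and SCAP (16.1%, against 8.77% of all genes with a window and 12.7% of those tested). CATGTG was in those of 2, ACACA and TM7SF2 (6.45%, against 13.4% and 9.91%). The word TCACNCCAC was in the window of SREBF2 alone (3.23%, against 1.39% of all genes with a window). These shares are matches of letters, and genes with several windows had more chances of a match.

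Among the mevalonate genes, MVD, the decarboxylase that yields the isoprenoid unit isopentenyl diphosphate, had log2 signals of 6.54, 6.41, 6.53 and 6.61 on Dox arrays 1 to 4. On No dox arrays 2 to 4 they were 6.25, 6.26 and 6.34. Every Dox array was above every No dox array, though the lowest Dox value and the highest No dox value were close. The log2 fold change was 0.24 (95% CI 0.07 to 0.40, unadjusted p = 0.00913, adjusted p = 0.437, limma). On the authors' values, it was 0.13.

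PMVK, the kinase just before MVD, had 7.88, 8.01, 7.89 and 7.74 on the Dox arrays and 7.87, 8.02 and 7.89 on the No dox arrays, groups that overlapped almost fully (log2 fold change −0.05, 95% CI −0.23 to 0.14). The neighbouring enzymes were between these genes. IDI1, which isomerises the isoprenoid unit, was at 0.15, and FDPS, which joins the units to farnesyl diphosphate, at 0.06. MVK, the kinase before PMVK, was at 0.05. HMGCS1, the synthase at the entry of the pathway, had a log2 fold change of −0.03 with an interval of −0.29 to 0.23, one of the wider ones. Its No dox array 2 read 9.72, above every other array, against 9.35 and 9.20 on No dox arrays 3 and 4 and 9.33 to 9.49 on the Dox arrays. ACAT2, which joins acetyl-CoA units, was at 0.14 by its brighter probe and at −0.04 by its dimmer one, which was detected on 1 Dox and 1 No dox array.

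In the sterol steps, TM7SF2 had log2 signals of 6.37, 6.11, 6.27 and 6.29 on Dox arrays 1 to 4 and 5.73, 5.48 and 5.67 on No dox arrays 2 to 4. The groups were well apart, and the lowest Dox array lay above the highest No dox array by more than either group's spread (SD 0.11 over the 4 Dox and 0.13 over the 3 No dox arrays). The log2 fold change was 0.63 (95% CI 0.43 to 0.83, adjusted p = 0.0359, limma), which is 1.55-fold (1.35 to 1.78). Before normalization, the scanner signal was 136 to 151 on the Dox arrays and 110 to 121 on the No dox arrays, where the median over all probes was 85.6 to 86.4. The probe is thus dim, and the size of its change moved with the background correction: 0.30 on the authors' values, where the adjusted p-value was 0.00416. The call was lost when any array other than Dox replicate 2 was left out (adjusted p between 0.0993 and 0.178), and held without Dox replicate 2 (0.0429). The log2 fold change over these 7 refits was 0.56 to 0.68.

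LBR, the lamin B receptor, carries the same sterol reductase activity as TM7SF2. Its brighter probe read 6.65, 6.64, 6.52 and 6.62 on the Dox arrays and 6.74, 6.56 and 6.62 on the No dox arrays. The second probe read 5.42, 5.31, 5.23 and 5.09 on the Dox arrays and 5.33, 5.12 and 5.28 on the No dox arrays. Both probes overlapped between the groups, with log2 fold changes of −0.03 (95% CI −0.20 to 0.13) and 0.01 (−0.20 to 0.22). Neither interval reached the lower bound of 0.43 of the TM7SF2 interval; the difference between the genes was not tested.

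SC5D, the desaturase that works shortly before the end of the pathway, had 10.52, 10.49, 10.59 and 10.42 on the Dox arrays and 10.21, 10.33 and 10.32 on the No dox arrays. The groups did not overlap. The log2 fold change was 0.22 (95% CI 0.05 to 0.38, unadjusted p = 0.0140, adjusted p = 0.477, limma). HSD17B7, a ketoreductase of the demethylation complex, had a value below 0, with signals of 7.01, 7.19, 6.97 and 6.90 on the Dox arrays and 7.12, 7.35 and 6.93 on the No dox arrays. The groups overlapped, with No dox array 3 the highest, and the log2 fold change was −0.11 (95% CI −0.36 to 0.13). It was −0.01 without No dox replicate 3 and −0.22 without No dox replicate 4, so its size rests on single arrays.

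The remaining sterol genes had log2 fold changes between 0.09 and 0.16, each with an interval that included 0. SQLE, the squalene epoxidase, was at 0.15 and 0.16 by its probes, and LSS, which closes the ring, at 0.13. CYP51A1, the lanosterol demethylase, was at 0.09 with the interval −0.25 to 0.44. NSDHL of the demethylation complex was at 0.15, EBP, the sterol isomerase, at 0.14, and DHCR7, the last reductase named here, at 0.11 and 0.16.

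Among the fatty acid genes, ACSS2 was the most separated. Probe ILMN_2336595 read 9.98, 10.04, 10.12 and 10.03 on the Dox arrays and 9.70, 9.74 and 9.64 on the No dox arrays. Probe ILMN_1714197 read 10.17, 10.19, 10.43 and 10.19 on the Dox arrays and 9.96, 9.96 and 9.87 on the No dox arrays. Both probes separated the groups on every array, and Dox array 3 was the highest on both. The log2 fold changes were 0.35 (95% CI 0.19 to 0.50, adjusted p = 0.206) and 0.32 (0.13 to 0.50, adjusted p = 0.331, limma). On the authors' values they were 0.32 (adjusted p = 0.00204) and 0.30 (adjusted p = 0.0174), past the threshold with nearly the same size. The adjusted p-value of ILMN_2336595 ran between 0.00130 and 0.592 over 20 alternative settings, of which 5 called it.

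SCD had 11.38, 11.41, 11.48 and 11.38 on the Dox arrays and 11.26, 11.12 and 11.13 on the No dox arrays. The Dox arrays were close together and all above the No dox arrays. The log2 fold change was 0.24 (95% CI 0.08 to 0.40, adjusted p = 0.392, limma), and on the authors' values it was 0.24 (adjusted p = 0.0324).

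ACLY, which cleaves citrate to acetyl-CoA, had its largest log2 fold change at probe ILMN_1749014, which read 9.27, 9.46, 8.74 and 9.47 on the Dox arrays and 8.82, 9.26 and 8.82 on the No dox arrays. Dox array 3 was the lowest of all 7, the groups overlapped, and the value of 0.27 had the widest interval of the set (−0.13 to 0.67). Without Dox replicate 3 the value was 0.43, and without No dox replicate 3 it was 0.42. Its other probe was at 0.15 (−0.03 to 0.33).

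ME1, the malic enzyme that supplies NADPH, was the 1 member with every Dox array below every No dox array: 7.79, 7.92, 7.87 and 7.86 in Dox and 7.98, 7.96 and 8.06 in No dox cells. The gap between the groups was small, and the log2 fold change of −0.14 had an interval that included 0 (95% CI −0.29 to 0.01, adjusted p = 0.627, limma). ELOVL6, the elongase of palmitate, was also below 0 at both probes. ILMN_1700546 read 7.69, 7.80, 7.68 and 7.57 on the Dox arrays and 7.75, 7.74 and 7.82 on the No dox arrays, with overlap (−0.09, 95% CI −0.26 to 0.08), and the other probe was at −0.03. Acetyl-CoA carboxylase, ACACA, which makes malonyl-CoA, was at 0.09 and 0.01, and fatty acid synthase, FASN, at 0.05. The desaturases of polyunsaturated fatty acids, FADS1 and FADS2, were at 0.16 and 0.14.

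**Figure D2:**
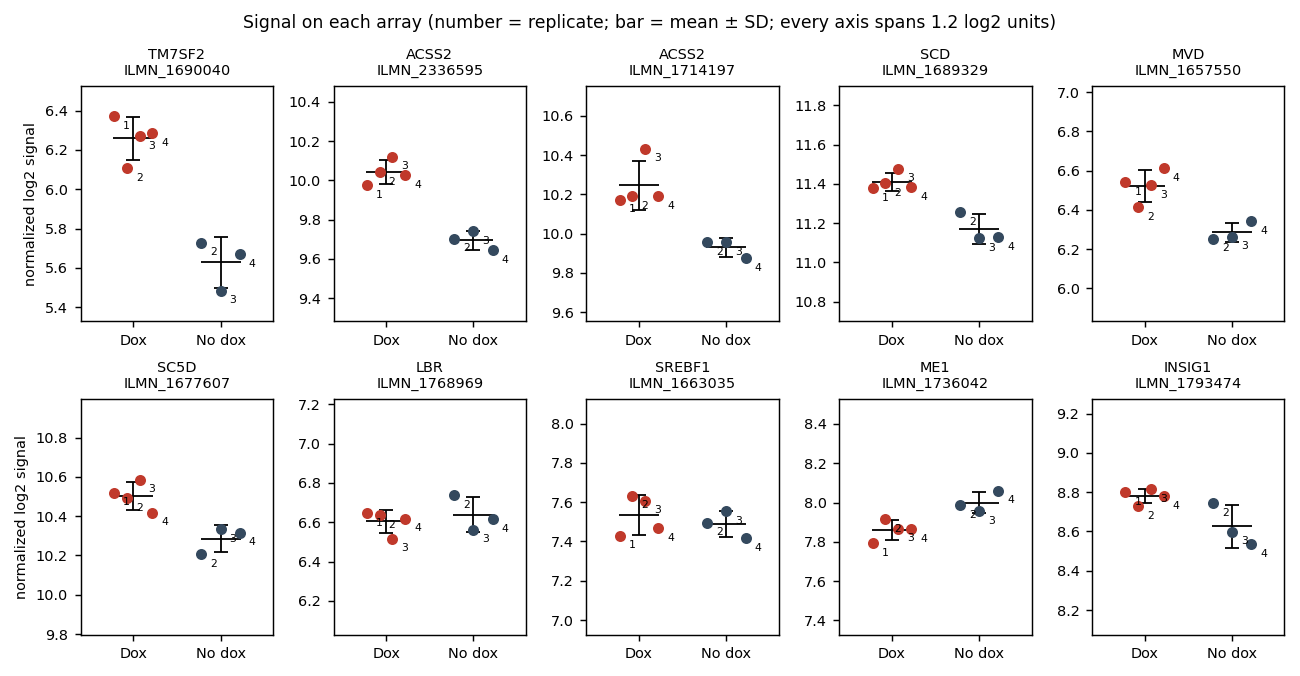
Normalized log2 signal (y axis) on each Dox array (red, left) and No dox array (dark, right) at 10 member probes; numbers are replicates, black bars the mean ± SD, and every panel spans the same range of log2 units. The Dox points are all above the No dox points for TM7SF2, ACSS2, SCD, MVD and SC5D and all below them for ME1, while LBR, SREBF1 and INSIG1 overlap.

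No regulator passed the test. INSIG2, which retains SCAP in the endoplasmic reticulum, had 6.87, 6.85, 7.05 and 7.07 on the Dox arrays and 6.76, 6.84 and 6.75 on the No dox arrays. The groups did not overlap, but Dox array 2 and No dox array 3 were almost level (log2 fold change 0.18, 95% CI −0.00 to 0.36, adjusted p = 0.598, limma). INSIG1, an SREBP target that acts in the same way, had 8.80, 8.73, 8.81 and 8.78 on the Dox arrays and 8.74, 8.60 and 8.53 on the No dox arrays. No dox array 2 lay among the Dox arrays, and the log2 fold change was 0.16 (95% CI −0.01 to 0.32). Its dimmer probe, detected on 1 Dox and 1 No dox array, read 4.52, 4.63, 4.58 and 4.76 on the Dox arrays and 4.80, 4.38 and 4.39 on the No dox arrays.

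SREBF1 encodes the SREBP that mainly drives fatty acid genes. At ILMN_1663035 it had 7.43, 7.63, 7.61 and 7.47 on the Dox arrays and 7.50, 7.55 and 7.42 on the No dox arrays. At ILMN_2328986 it had 5.81, 5.89, 5.70 and 5.67 on the Dox arrays and 5.47, 6.02 and 5.94 on the No dox arrays. The groups overlapped at both probes, with log2 fold changes of 0.05 (95% CI −0.13 to 0.22) and −0.04 (−0.33 to 0.24).

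SREBF2, which encodes the SREBP that mainly drives cholesterol genes, was read by 1 dim probe: 4.45, 4.87, 4.85 and 4.49 on the Dox arrays and 4.46, 4.42 and 4.53 on the No dox arrays. It was above background on Dox arrays only, and on 2 of them, so it entered the tested probes through that group alone. Since the probe was not well above background on any No dox array and the Dox mean was no higher than the lowest detectable level there, no fold is given. SCAP was at −0.03 (95% CI −0.18 to 0.12).

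ABCA1, which exports cholesterol from the cell, was the 1 transport gene with a tested probe. It had 6.52, 6.83, 6.74 and 6.76 on the Dox arrays and 6.67, 6.67 and 6.44 on the No dox arrays. The groups overlapped, and the log2 fold change was 0.12 (95% CI −0.09 to 0.33).

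Genes around the pathway had a median nearer 0. Of 79 further genes in 5 lists, 61 had a tested probe. Of these, 37 were above 0 (60.7%, against 51.9% of all genes), with a median of 0.03. The test was passed by 0 in either direction (limma), against 23 higher and 0 lower over all 11389 genes. At so low a share over all genes, 0 among 61 is no contrast with the members. At an unadjusted p-value under 0.05, 1 of the 61, NPC1, was higher, against 5.01% of all genes. The 1 lower, against 3.46% of all genes, was NFYB, a subunit of the CCAAT-binding factor in the list of SREBP partners. Its probe was detected on 2 No dox arrays and on 0 Dox arrays, so it was tested through the No dox group alone, and no fold is given. The isoprenoid branch enzymes, which prenylate proteins or make dolichol and ubiquinone, were above 0 in 5 of 11 genes tested, with a median of −0.05. Other fatty acid enzymes were above 0 in 13 of 19 (median 0.05), and the proteins that process or partner SREBP in 9 of 16 (median 0.01). Of the other sterol enzymes, 2 of 4 tested were above 0, among them MSMO1, the methyl sterol oxidase between CYP51A1 and NSDHL, at 0.14 (unadjusted p = 0.256). MLXIPL and CYP27A1, counted above 0 in these lists, were each detected on 1 Dox array and on 0 No dox arrays. They were thus tested through the Dox group alone, and no count was taken without them.

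In the list of sterol uptake and efflux, 8 of 11 genes tested were above 0, with a median of 0.04. VLDLR, among the 8, was detected on 3 Dox and 0 No dox arrays, and ABCG4, below 0, on 1 Dox and 0 No dox arrays. Both were tested through the Dox group alone, and no count was taken without them, here or over the 61 genes. NPC1, which moves cholesterol out of the lysosome, had the largest value at 0.27 (unadjusted p = 0.00588, adjusted p = 0.379, limma), and 0.25 with an adjusted p of 0.0358 on the authors' values.

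The 7 arrays also show how the members varied together once the difference between the groups is removed. Each gene's signal was set against the mean of its own group, and Pearson's r of these deviations was taken for each of the 496 pairs of the 32 genes. The median r was 0.19, with 63.5% of pairs above 0 and 28.2% above 0.5. The pairs include those of the dim SREBF2 probe, detected on Dox arrays only, and no value was taken without them. Over all pairs of the 11389 genes, the median r was 0.00, with 50.1% above 0 and 15.9% above 0.5. Between members and all other genes the median was −0.00. With 7 arrays and group means removed, a single r has little precision, and all pairs share the same arrays.

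Within steps, the median r was 0.17 for mevalonate genes, 0.02 for sterol genes, 0.23 for fatty acid genes and 0.12 for regulators. Between steps, it was 0.22 for mevalonate with sterol genes, 0.11 for mevalonate with fatty acid genes and 0.15 for mevalonate genes with regulators. For sterol genes it was 0.17 with fatty acid genes and 0.19 with regulators, and for fatty acid genes with regulators it was 0.37. The regulators here include the dim SREBF2 probe, detected on 2 Dox arrays and 0 No dox arrays, and no median r was taken without it. SQLE had the highest median r with the other members (0.52), followed by FDPS (0.49), LSS (0.45) and ELOVL6 (0.44). The strongest pairs were HSD17B7 with ACLY and FDPS with LSS (r = 0.97 each), followed by LSS with FADS2 (0.95). TM7SF2 had the lowest median r (−0.27), next to MVD (−0.26) and DHCR7 (−0.24). Of the 5 genes with an unadjusted p-value under 0.05 for Dox against No dox (limma), TM7SF2 and MVD thus had a low median r. SC5D was at −0.04, while ACSS2 was at 0.35 and SCD at 0.40. Small p-values therefore did not go with a low median r throughout. Each gene stood here by its brightest tested probe alone. Of the genes named, those with 2 tested probes had an r between their own probes of 0.88 (ACSS2), 0.81 (SQLE), 0.53 (ACLY), 0.21 (ELOVL6) and −0.22 (DHCR7).

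**Figure D3:**
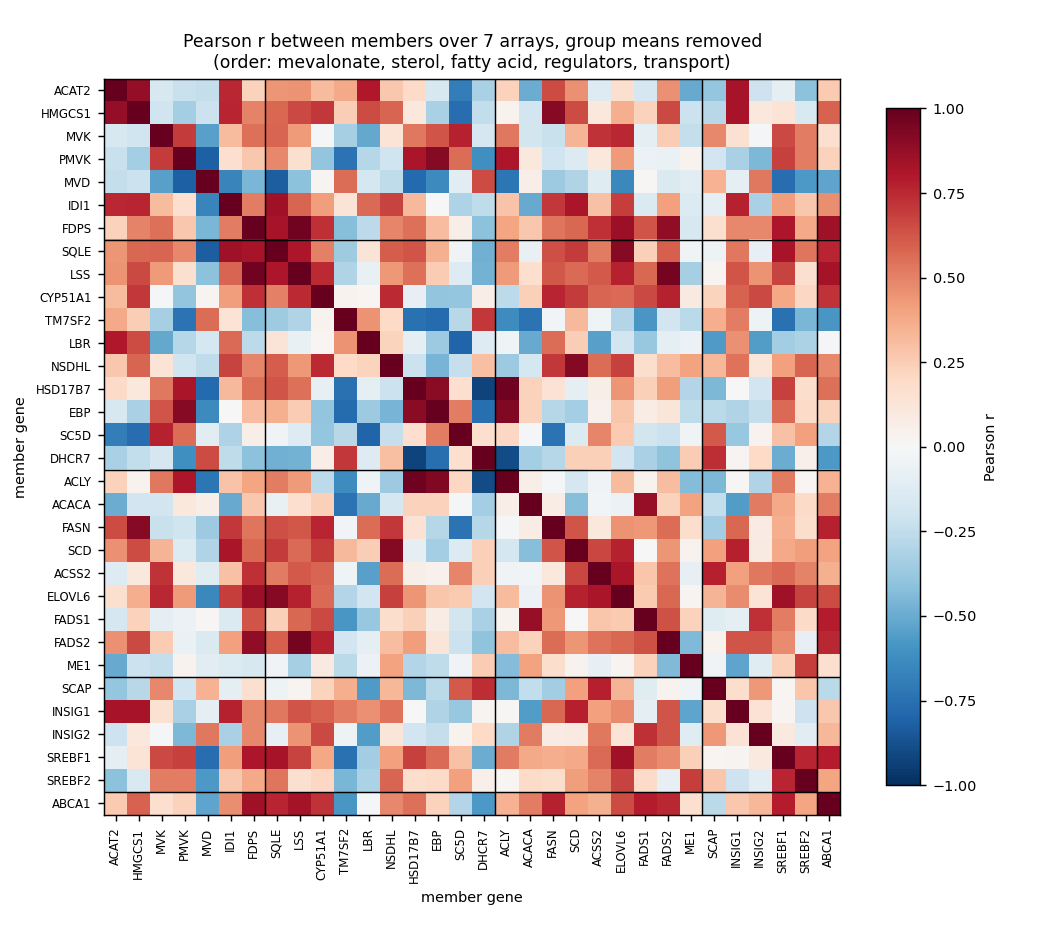
Pearson r (colour, red above 0 and blue below) between each pair of the 32 member genes over 7 arrays after removing the group means; both axes list the genes by step, with black lines between steps. Broad red bands cross the steps at SQLE, FDPS, LSS and ELOVL6, and the rows of TM7SF2, MVD and DHCR7 are mostly blue. Each gene is shown by its brightest tested probe, and that of SREBF2 was detected on Dox arrays only.

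On some arrays most members deviated in the same direction. On Dox array 3, 24 of 32 members were above their Dox mean (median deviation 0.05), and on Dox array 1, 21 were below it (−0.06). On No dox array 4, 24 of 32 were below their No dox mean (−0.07), while No dox array 2 had a median deviation of 0.05. Over all genes tested, the median deviation stayed between −0.00 and 0.01 on every array. The SD of the members' median between single arrays of a group was 0.06. The median log2 fold change of 0.13 is between means of 4 and 3 arrays, so these values are not directly comparable. Left out in turn, No dox array 4 lowered the members' median log2 fold change to 0.07, with 23 of 32 above 0, whereas the other 6 arrays gave 0.11 to 0.15.

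**Figure D4:**
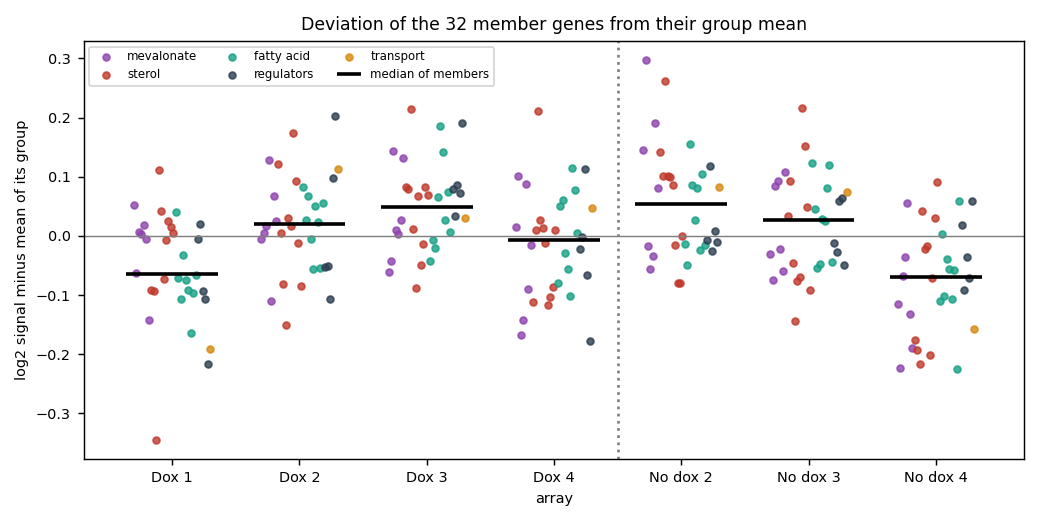
Log2 signal of each of the 32 member genes minus the mean of its group (y axis) on the 4 Dox arrays (left) and the 3 No dox arrays (right); points are genes coloured by step and black lines the median of the members. The medians are lowest on No dox array 4 (−0.07) and Dox array 1 (−0.06), and highest on No dox array 2 and Dox array 3 (0.05 each).

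How far the calls depend on the settings differs between genes. TM7SF2 was above 0 in all 20 alternative settings run and was called in 11. ACSS2 and SCD were also above 0 in all 20, and their calls appeared where the background correction was weaker or absent, or where the spread was modelled with intensity: ILMN_2336595 in 5 settings and SCD in 3. MVD was above 0 in all 20 and was called in none, with adjusted p-values between 0.240 and 0.684. In these counts, the authors' values and the setting without background correction gave nearly the same fit, so they are not separate support.

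**Figure D5:**
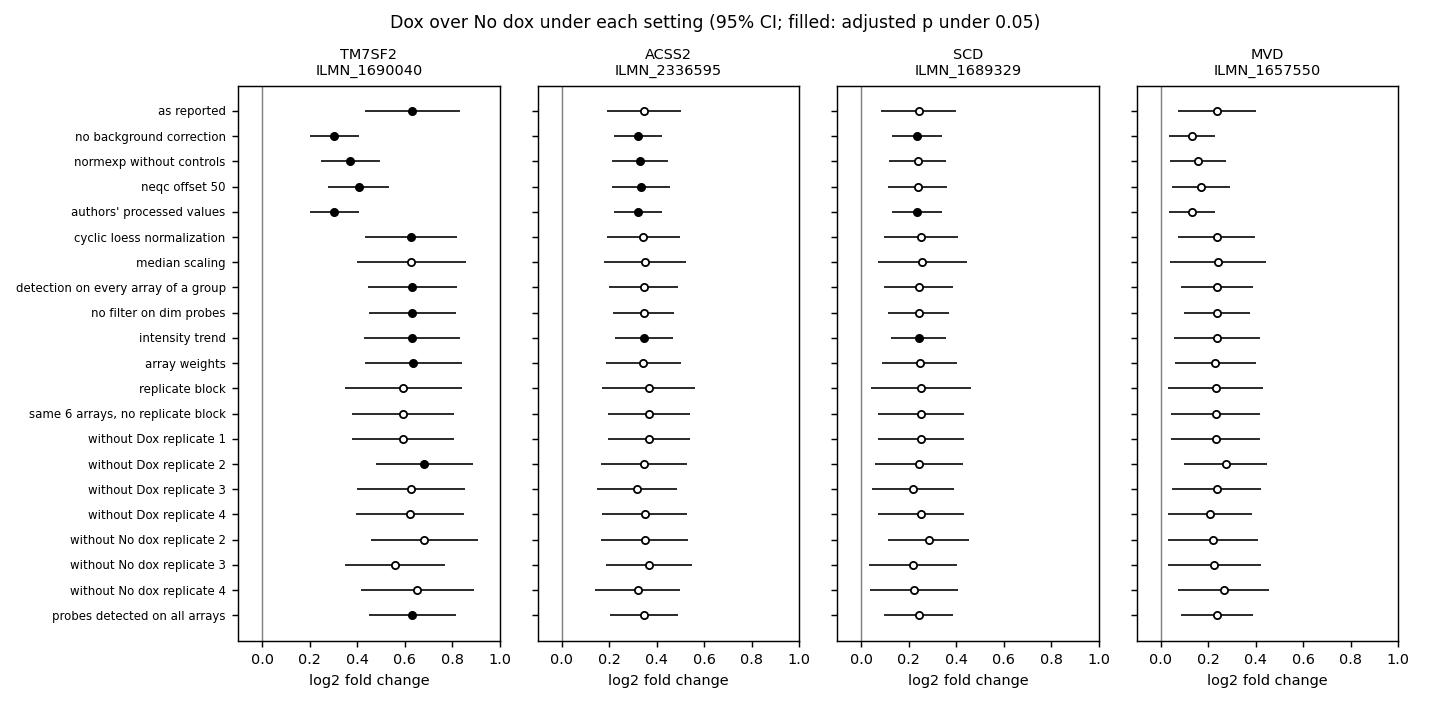
Log2 fold change of Dox over No dox (x axis, with 95% confidence interval) at probes of TM7SF2, ACSS2, SCD and MVD as reported and under 20 alternative settings (rows); filled points passed an adjusted p-value of 0.05. TM7SF2 shrinks to 0.30 without background correction but stays called there, and loses its call in most refits with an array left out.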

How the data were processed

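Biotin-labelled RNA of PC3 TRIPZ-MITFA cells was hybridised to Illumina HumanHT-12 v4 arrays. The authors deposited, for 47323 probes, the signal intensity from the scanner software with its detection p-value, and a table of log2 values for 19337 probes which, per the paper's methods, were background-corrected and quantile-normalized with lumi. Intensities were corrected here with neqc of limma (version 3.58.1, R 4.3.3; detection p-values stood in for negative control probes, offset 16), quantile-normalized and log2-transformed. The package lumi was not used, and the authors' log2 values served as an alternative. The 19337 probes that 1 array or more detected at p under 0.01 entered limma with a mean for each of the 2 groups and empirical Bayes moderation, Dox minus No dox, with Benjamini-Hochberg adjustment over all of them. The fit was checked on simulated data with independent noise, where recovery was required only for changes larger than any at the member probes. That check does not bear on changes as small as those of most members. The number of arrays limits the precision, and no batch is given in the labels.

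Gene names came from the platform annotation with symbols brought up to RefSeq (GRCh38.p14) by gene identifier; 15060 tested probes had 1 gene name, 2 had several and 4275 had none. The annotation used here covers the tested probes only. For gene counts and correlations, each gene was represented by its brightest tested probe. Values per array are given for probes with an adjusted or unadjusted p-value under 0.05, the 4 largest increases and decreases, the smallest p in each step, and INSIG1, SREBF1, SREBF2 and LBR. MVK, IDI1, FDPS and other members are given by their log2 fold change. HMGCS1, MSMO1, NPC1 and NFYB were chosen after their values were seen. The members, lists, tests and alternatives were chosen with earlier results of these data known. As alternatives, the background correction, normalization and filter were changed, arrays were weighted or left out in turn, an intensity trend or a replicate block was added, and the authors' values were fitted. The filter to probes detected on all arrays and the fit to the 6 arrays of the block without it were added after seeing the data. Promoter words were matched in RefSeq windows on both strands.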

Additional observations from a re-analysis of the deposited data

Results flagged for a closer look

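At the ACSS2 probe ILMN_1714197, Dox array 3 read 10.43, away from the other Dox arrays, of which the nearest read 10.19. The gap was 0.929 of the range of the 4 Dox arrays, above Dixon's critical value for 4 values at the 95% level. It was the 1 case among the 42 member probes examined, and chance gives about 1 in 20 such groups. The other ACSS2 probe was also highest on Dox array 3 (10.12).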

How the results depend on the processing

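The count of member probes changed (1, limma) was 4 without background correction, on the authors' values and with an intensity trend, and 3 with normexp without controls and with an offset of 50. It was 0 with median scaling, with the replicate block and on the same 6 arrays without the block, where 6, 6 and 9 probes were higher at an unadjusted p-value under 0.05. With an array left out it was 0 to 1, with 6 to 12 probes higher at the unadjusted threshold, and only leaving out Dox replicate 2 kept the call of TM7SF2. Over all probes, the 26 higher and 0 lower calls became 76 and 25 on the authors' values. For TM7SF2, the log2 fold change was 0.63 with median scaling (adjusted p = 0.0520), 0.59 with the replicate block (0.429), 0.59 on the same 6 arrays without it (0.125) and 0.56 to 0.68 with an array left out. Same-numbered arrays did not deviate together (r between −0.03 and 0.01, and 0 of 6 arrays correlated best with their own number). With so few pairs, this cannot tell whether they came from the same culture or experiment, and the labels do not say. The members' median log2 fold change (0.13) ran between 0.0713 and 0.15 with an array left out, the lowest without No dox replicate 4. The median r between members (0.19) was 0.21 on the authors' values, 0.19 without background correction and 0.15 to 0.25 with an array left out. Across the other 19 named probes, the call was unchanged in 363 of 376 comparisons, 13 gained a call (the ACSS2 and SCD probes) and 0 lost one; 8 changed sign without a call. Dim probes, TM7SF2 and SREBF2 among them, are limited by their signal over background.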
